A study of Mus musculus with 6 samples.

Results

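The auxiliary subunits of AMPA and kainate receptors are membrane proteins that bind to the pore-forming subunits of these glutamate receptors. Their 10 genes were chosen by name, as the TARP, cornichon and Neto genes, and all 10 were found among the 54281 genes of the count table. They were measured in GLUTag cells, a GLP-1-secreting line of mouse enteroendocrine origin, in 6 libraries of 1 condition. All wells had been grown for 48 h on 0.4% Matrigel in medium with 1 g/L glucose and 10% FBS, and no allele, transgene or agent distinguished them. Plate 1 held 3 wells at passage 23 and plate 2 held 3 wells at passage 27, so that plate and passage cannot be told apart. The libraries of plate 1 are replicates 1, 2 and 3. For plate 2 the columns do not tell which replicate is which, and its libraries are called lowest, middle and highest after their total counts. The libraries come from 2 cultures of one line, and p-values over them measure the spread between wells, which may be technical.

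TARPs (transmembrane AMPA receptor regulatory proteins) are relatives of the gamma subunits of voltage-gated calcium channels. They carry AMPA receptors to the cell surface, hold them at synapses through scaffold proteins of the Dlg family and slow their closing. The type I TARPs are encoded by Cacng2 (stargazin, or γ-2), Cacng3 (γ-3), Cacng4 (γ-4) and Cacng8 (γ-8), and the type II TARPs by Cacng5 (γ-5) and Cacng7 (γ-7). The cornichon homologues Cnih2 and Cnih3 assist the export of AMPA receptors from the endoplasmic reticulum and slow their deactivation and desensitisation. Neto1 and Neto2 are single-pass proteins with CUB domains that slow the kinetics of kainate receptors. All of these are best known from the brain, where the choice of auxiliary subunit sets the time course of the receptor current.

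Each library was prepared from polyadenylated RNA by a method that reads only the 3′ end of transcripts, so that counts do not grow with transcript length. Levels of different genes were compared on this basis. Differences between genes in the capture or annotation of the 3′ end were not tested. Levels are given in CPM, the counts of a gene per M counts in its library. The total ran from 21399987 to 36488198. For a gene without counts the upper limit was set at 3 counts, which is 0.0822 to 0.14 CPM and covers counting error only. All 10 enteroendocrine markers, Gcg among them, lay above 3 counts in every library, with a summed level of 5854 to 7915 CPM. Apob of the enterocytes, Defa24 of the Paneth cells, Sox10 of the glia and Col3a1 of the fibroblasts were at 0 in all 6 libraries. The 4 neuronal markers summed to 85.8 to 104 CPM, nearly all of it Elavl4, and the part of other cell types in the levels given here was not tested. The plate 2 library with the middle total stood apart from the other 5: among the 5031 genes that averaged 30 CPM or more, 354 were below the mean of the other libraries of its plate by over 2-fold, against 0 to 3 genes in each other library. In the other direction, 49 genes of the highest-total library of plate 2 were above the mean of its plate mates by over 2-fold. In each other library 0 to 4 genes were. Values without the middle-total library of plate 2 are given where that library bears on a result.

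Of the 10 genes, 8 had more than 3 counts in every library. Among all 54281 genes, 28.1% did. Neto2 was the highest at 51.1 ± 9.39 CPM (SD, n = 6 libraries), followed by Cacng4 at 42.1 ± 3.34 CPM and Cnih2 at 28.7 ± 5.67 CPM. Cacng7 had 8.90 ± 2.25 CPM, Cacng5 5.43 ± 1.32 CPM, Cacng3 5.42 ± 0.863 CPM, Cacng8 4.96 ± 0.727 CPM and Neto1 2.96 ± 1.06 CPM (SD, n = 6 each). Cacng2 stayed within 2 counts per library and Cnih3 had none. One transcript led in 3 of the 4 classes: Cacng4 among the type I TARPs, Cnih2 among the cornichons and Neto2 among the Neto genes. The type II TARPs, Cacng7 and Cacng5, were closer to each other. Of the 27044 genes with any count, 87.7% lay below Neto2, 85.5% below Cacng4 and 80.8% below Cnih2. The 10 genes together gave 150 ± 13.5 CPM (SD, n = 6), between 131 and 164 CPM per library.

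**Figure D1:**
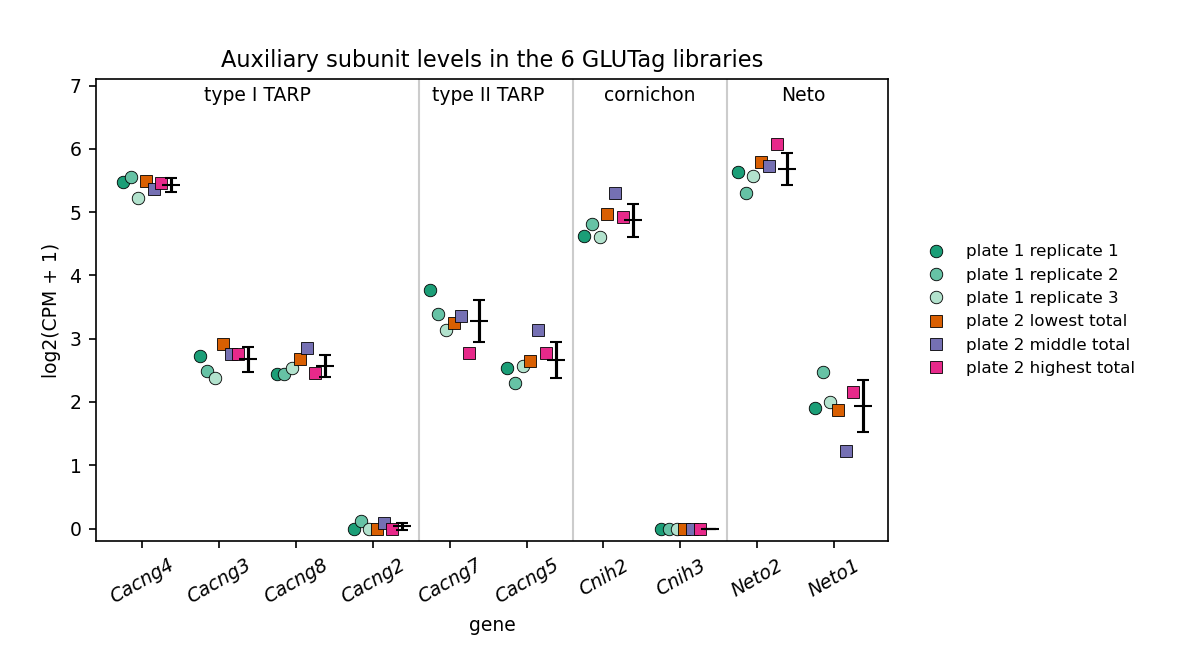
Level of each auxiliary subunit gene as log2(CPM + 1) in the 6 GLUTag libraries. Each point is a library, circles for plate 1 and squares for plate 2, and the black mark is the mean with 1 SD. Neto2, Cacng4 and Cnih2 lie between 23.3 and 66.7 CPM in every library, 5 genes lie between 1.33 and 12.6 CPM, and Cacng2 and Cnih3 are at or near 0.

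In the order of the mean levels, the ranges of most neighbours overlapped. Neto2 was above Cacng4 in 5 of 6 libraries, with a difference of 0.26 ± 0.29 on the scale of log2(CPM + 1) (SD, n = 6), which was within its spread. Cacng4 was above Cnih2 in 6 of 6 libraries, by 0.56 ± 0.27, although their ranges met. A clear step separated Cnih2 from Cacng7, with 1.60 ± 0.46 and no overlap. Below it, Cacng5, Cacng3 and Cacng8 could not be ordered, since Cacng5 and Cacng3 differed by -0.01 ± 0.26 and Cacng3 and Cacng8 by 0.10 ± 0.20. The next step without overlap lay between Neto1 and Cacng2.

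The type I TARPs share the end of their coding sequence. Their last codons encode a ligand for the PDZ domains of the Dlg scaffold proteins, which the type II TARPs lack in this form. The last 30 coding bases, stop codon included, are shown for all 6 TARP genes because the classes are told apart there. They are from GENCODE M21 on GRCm38, 5′ to 3′, with the last 4 codons before the stop codon in capitals.
Cacng2: acagccaaccgccggACCACGCCCGTAtga
Cacng3: ccggccaacagacgtACCACGCCTGTCtga
Cacng4: atgctgaaccggcggACGACTCCCGTGtga
Cacng8: acgctcaacaggaaaACCACGCCCGTGtag
Cacng5: tatgaccagatgtcaTCATCTCCCTGCtga
Cacng7: catctccacatctccACTTCGCCGTGCtga
The 4 codons in capitals encode the same residues in the 4 type I genes although only 8 to 11 of their 12 bases are identical between any pair. Between a type I and a type II gene 5 to 7 of the 12 bases are identical, and between Cacng5 and Cacng7, whose encoded residues differ, 8 are. These ends lie at chr15:77995149-77995178 on the minus strand for Cacng2, chr7:122768817-122768846 on the plus strand for Cacng3, chr11:107734780-107734809 on the minus strand for Cacng4, chr7:3415576-3415605 on the plus strand for Cacng8, chr11:107877352-107877381 on the minus strand for Cacng5 and chr7:3366919-3366948 on the plus strand for Cacng7. In the last 500 bases of the transcripts, no stretch of 31 bases of Cacng3, Cacng4, Cacng5 or Cacng7 recurred in a transcript of another gene. In Cacng8, 2.14% of these stretches did, all in Gm23450, which was at 0 counts in all 6 libraries, and in Cacng2 2.34% did.

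Cacng4 (ENSMUSG00000020723, GRCm38 chr11:107732357-107794557, minus strand) encodes γ-4, a TARP known from the developing brain. It had 1040, 1039 and 778 counts in replicates 1, 2 and 3 of plate 1, and 1229, 1248 and 1574 in the plate 2 libraries with the lowest, middle and highest total. These are 43.3, 45.9 and 36.4 CPM on plate 1 and 43.8, 40.4 and 43.1 CPM on plate 2. Replicate 3 of plate 1 was the lowest and the plates overlapped. Its coefficient of variation was 7.93%, against a median of 18.3% over the 4167 genes whose mean lay within 2-fold of it. With TMM-scaled CPM it was 13.7% against a median of 14.0%, so that the low spread of Cacng4 was not seen with TMM. In CPM of the total without the middle-total library of plate 2 it was 8.49% against 15.6%.

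Cacng3 (ENSMUSG00000066189, chr7:122670492-122769393, plus strand) encodes γ-3, a TARP of the cerebral cortex. It had 5.63, 4.60 and 4.21 CPM on plate 1 and 6.55, 5.76 and 5.78 CPM on plate 2, from 90 to 211 counts. Every plate 2 library was above every plate 1 library, as for 35.2% of all genes tested between plates. With TMM-scaled CPM the plates overlapped. Cacng8 (ENSMUSG00000053395, chr7:3390683-3415648, plus strand) encodes γ-8, the main TARP of the hippocampus. It had 4.42, 4.42 and 4.81 CPM on plate 1 and 5.38, 6.24 and 4.49 CPM on plate 2, from 100 to 193 counts, and the plates overlapped. Cacng2 (ENSMUSG00000019146, chr15:77991748-78120028, minus strand) encodes stargazin, the founding TARP, whose loss causes the ataxia and absence seizures of the stargazer mouse. It had 2 counts in replicate 2 of plate 1 and 2 counts in the middle-total library of plate 2, and 0 in the other 4 libraries. This is at or below the limit that a count of 0 allows.

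Within each library, Cacng4 was 7.91 ± 1.22 times Cacng3 in CPM (SD, n = 6), between 6.68 and 9.99 times, and 8.66 ± 1.52 times Cacng8. On the scale of log2(CPM + 1) these differences were 2.76 ± 0.18 and 2.86 ± 0.23. Both held in 6 of 6 libraries, with p = 0.03125 in an exact permutation test that flips the sign of each library's difference (two-sided), the smallest p that 6 libraries allow, and an adjusted p of 0.0382 over the 11 comparisons made. Cacng3 and Cacng8 were not told apart: Cacng3 was higher in 4 of 6 libraries, with a ratio of 1.10 ± 0.182 that ran from 0.874 to 1.29 (exact permutation test, p = 0.25, adjusted p = 0.25). The 3 differences from Cacng2 also held in 6 of 6 libraries with the same p, which says only that Cacng4, Cacng3 and Cacng8 were detected and Cacng2 was not.

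Cacng7 (ENSMUSG00000069806, chr7:3332955-3368221, plus strand) and Cacng5 (ENSMUSG00000040373, chr11:107874605-107915055, minus strand) encode the type II TARPs γ-7 and γ-5, which modify receptor gating and have less effect on surface delivery than the type I TARPs. Cacng7 had 303, 215 and 166 counts on plate 1 and 238, 286 and 212 on plate 2, or 12.6, 9.50 and 7.76 CPM and 8.47, 9.25 and 5.81 CPM. Replicate 1 of plate 1 was the highest and the plate 2 library with the highest total the lowest. Cacng5 had 4.79, 3.93 and 4.95 CPM on plate 1 and 5.23, 7.80 and 5.86 CPM on plate 2, from 89 to 241 counts. Its highest value was in the middle-total library of plate 2. The plates did not overlap, with plate 2 higher, as for 35.2% of all genes tested. With TMM-scaled CPM they overlapped. Cacng7 was 1.74 ± 0.659 times Cacng5 (SD, n = 6), in 5 of 6 libraries, and the difference did not pass the test (exact permutation test, p = 0.0625, adjusted p = 0.0688). The mean difference was 0.96 on plate 1 and 0.27 on plate 2, on the scale of log2(CPM + 1), and the ratio reached 0.991 in the highest-total library of plate 2.

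As shares of the summed TARP level, Cacng4 made up 63.1 ± 3.31% (SD, n = 6), between 58.1% and 67.1%. Cacng7 followed with 13.3 ± 2.87%, Cacng5 with 8.14 ± 1.92%, Cacng3 with 8.09 ± 1.01% and Cacng8 with 7.44 ± 1.09%. Within the type I TARPs alone, Cacng4 held 80.2 ± 2.23%, Cacng3 10.3 ± 1.25% and Cacng8 9.48 ± 1.54%. Within the type II TARPs, Cacng7 held 61.7 ± 8.90% and ran from 49.8% to 72.5%. In level, the type I sum was 52.6 ± 3.71 CPM and the type II sum 14.3 ± 2.36 CPM.

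Of the 6 TARP genes, 4 lie in a pair of clusters with more distant gamma subunit genes, whereas Cacng2 and Cacng3 lie elsewhere. On chromosome 11, Cacng1, Cacng4 and Cacng5 lie on the minus strand with gaps of 15.8 kb and 80.0 kb and no protein-coding gene between them. Cacng1, the gamma subunit of the skeletal muscle calcium channel, had 1 count in 1 library and 0 in the other 5, beside Cacng4 at 42.1 ± 3.34 CPM. On chromosome 7, Cacng7, Cacng8 and Cacng6 follow each other on the plus strand with gaps of 22.5 kb and 8.55 kb, again with no protein-coding gene between them. Cacng6, named here after its values were seen, had 0, 2 and 0 counts on plate 1 and 10, 14 and 0 on plate 2. Its middle- and lowest-total libraries of plate 2 stood above the limit for a count of 0, while the library with the highest total had none.

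Cnih2 (ENSMUSG00000024873, chr19:5092868-5098521, minus strand) and Cnih3 (ENSMUSG00000026514, chr1:181352628-181460641, plus strand) encode the cornichons of AMPA receptors. They lay far apart in the members' range, with Cnih2 below only Neto2 and Cacng4 in mean level and Cnih3 the lowest. The 250 bases before the start of each gene are shown because one gene was well detected and the other was not counted at all. They are from the RefSeq promoter windows on GRCm38.p6, 5′ to 3′ on the strand of the gene, with each CG dinucleotide in capitals. The run of Cnih2 is chr19:5098522-5098771 and that of Cnih3 is chr1:181352378-181352627.
Cnih2: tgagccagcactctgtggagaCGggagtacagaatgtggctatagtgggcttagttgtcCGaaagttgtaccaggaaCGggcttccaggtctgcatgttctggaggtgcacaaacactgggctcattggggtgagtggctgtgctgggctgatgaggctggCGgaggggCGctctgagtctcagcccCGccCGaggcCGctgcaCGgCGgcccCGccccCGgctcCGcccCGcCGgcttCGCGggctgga
Cnih3: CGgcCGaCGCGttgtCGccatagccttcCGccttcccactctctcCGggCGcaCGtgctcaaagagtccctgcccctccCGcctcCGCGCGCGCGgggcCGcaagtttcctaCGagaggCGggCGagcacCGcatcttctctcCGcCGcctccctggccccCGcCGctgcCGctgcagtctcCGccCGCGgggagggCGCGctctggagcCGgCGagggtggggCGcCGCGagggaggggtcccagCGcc
The motif searched was CG, which reads the same on both strands. The printed runs hold 17 CG for Cnih2 and 36 for Cnih3. In the whole windows of 300 bases, which go on for 50 bases into the transcript, Cnih2 had 25 CG and Cnih3 42. Over all 32851 promoter windows the median was 7, 18.4% held at least as many as Cnih2 and 3.03% at least as many as Cnih3, while 94.6% held at least 1. So the gene at 0 counts had the window richer in CG. Windows were found for 8 of the 10 genes, and not for Cacng4 and Neto1. The other windows ran from 0 CG, in 1 of the 2 windows of Neto2, to 36 in the other, with 20 for Cacng2, 15 for Cacng7, 9 for Cacng3, 2 for Cacng8, and 17 and 5 for the 2 windows of Cacng5.

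Cnih2 had 565, 611 and 499 counts on plate 1 and 856, 1195 and 1067 on plate 2. In CPM these were 23.5, 27.0 and 23.3 on plate 1 and 30.5, 38.7 and 29.2 on plate 2. Every plate 2 library was above every plate 1 library, and the plate 2 library with the middle total was the highest. Of all genes tested, 35.2% were likewise higher on plate 2 without overlap, and with TMM-scaled CPM the plates overlapped for Cnih2. The 3′ end of Cnih2 overlaps that of Yif1a, a gene of the opposite strand that encodes a protein of vesicle transport, by 14 bases. Yif1a, named after its values were seen, had 80.8 ± 13.5 CPM (SD, n = 6), and its highest value, 107 CPM, was in the same library as that of Cnih2. In the last 500 bases of the Cnih2 transcript, 0 of 470 stretches of 31 bases recurred in a transcript of another gene. That search read each transcript on its own strand only. The strand setting of the counting is not given in the sources used here, and the part of Yif1a in the Cnih2 counts was not tested. Cnih3 had 0 counts in all 6 libraries, so that Cnih2 was at least 166-fold higher in each library, with Cnih3 taken at the limit of 3 counts per library. The difference held in 6 of 6 libraries (exact permutation test, p = 0.03125, adjusted p = 0.0382), which says that Cnih2 was detected and Cnih3 was not.

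The relatives of the cornichons that do not bind AMPA receptors as auxiliary subunits were higher than either. Cnih4 had 118 ± 8.47 CPM and Cnih1 102 ± 14.4 CPM (SD, n = 6 each), and both take part in the export of cargo proteins from the endoplasmic reticulum in many cell types. Of the 4 related genes of both families, these 2 lay above 3 counts in every library and the calcium channel subunits Cacng1 and Cacng6 did not. As shares of the 8 AMPA receptor auxiliary genes, Cacng4 made up 44.3 ± 3.69% and Cnih2 29.9 ± 3.59%.

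Neto2 (ENSMUSG00000036902, chr8:85636588-85700924, minus strand) had 1166, 873 and 990 counts on plate 1 and 1527, 1612 and 2433 on plate 2. In CPM these were 48.6, 38.6 and 46.3 on plate 1 and 54.4, 52.1 and 66.7 on plate 2. The plate 2 library with the highest total was the highest. The plates did not overlap, with plate 2 higher, as for 35.2% of all genes tested. With TMM-scaled CPM they overlapped. Neto1 (ENSMUSG00000050321, chr18:86394952-86506718, plus strand) had 66, 103 and 64 counts on plate 1 and 75, 41 and 126 on plate 2. These are 2.75, 4.55 and 2.99 CPM and 2.67, 1.33 and 3.45 CPM, with the plate 2 library of middle total the lowest and the plates overlapping. The coefficient of variation of Neto1 was 35.7%, against a median of 27.9% over the 2716 genes within 2-fold of its level. It was 42.2% against 25.0% with TMM-scaled CPM, and 23.5% against 24.7% in CPM of the total without the middle-total library of plate 2. With TMM-scaled CPM, Cacng7 also lay above its median, with 32.1% against 18.4%. Cacng3 lay below, with 10.6% against 20.9%, as did Cacng8, with 11.2% against 21.5%. Cacng5, Cnih2 and Neto2 were closer to theirs. These alternatives for the spread, like those for Cacng4, were added after the data were seen, and no other library was left out for them.

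Neto2 made up 94.3 ± 2.68% of the Neto level (SD, n = 6), between 89.4% and 97.5%. It was 20.1 ± 10.3 times Neto1 in CPM, from 8.48 to 39.3 times, and higher in 6 of 6 libraries (exact permutation test, p = 0.03125, adjusted p = 0.0382). The mean difference on the scale of log2(CPM + 1) was 3.75 ± 0.55. The highest ratio was in the middle-total library of plate 2, and without that library the mean difference was 3.59.

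The auxiliary subunits were then set against the pore-forming subunits that they bind. The 6 TARP and 2 cornichon genes summed to 94.4, 95.4 and 81.4 CPM on plate 1 and to 99.9, 108 and 94.3 CPM on plate 2. The 4 AMPA receptor pore subunits, Gria1 to Gria4, summed to 59.0, 45.0 and 77.2 CPM on plate 1 and to 73.0, 64.9 and 74.1 CPM on plate 2. The auxiliary sum was above the pore sum in every library, with the smallest distance in replicate 3 of plate 1. In that library the auxiliary sum was the lowest of the 6 and the pore sum the highest. Their ratio was 1.51 ± 0.371 (SD, n = 6), from 1.05 to 2.12, and the difference was 0.56 ± 0.34 on the scale of log2(CPM + 1) (6 of 6 libraries, exact permutation test, p = 0.03125, adjusted p = 0.0382). It was 0.60 on plate 1 and 0.51 on plate 2. The result rests on Cnih2, whose 3′ end overlaps that of Yif1a by 14 bases. The part of Yif1a in the Cnih2 counts was not tested. The 6 TARPs alone were above the pore sum in 3 of 6 libraries, with a ratio of 1.06 ± 0.272 (SD, n = 6) and a difference of 0.05 ± 0.35 (exact permutation test, p = 0.719, adjusted p = 0.719), a comparison added after the data were seen. Most of the pore sum was Gria2 at 43.8 ± 8.13 CPM, the subunit that makes the receptor impermeable to calcium when edited, with Gria4 at 17.6 ± 4.03 CPM and Gria1 at 4.15 ± 0.843 CPM. Gria3 was at 0 in all 6 libraries. The single gene Cacng4 was thus at about the level of Gria2, and their ranges overlapped.

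Neto1 and Neto2 summed to 51.3, 43.1 and 49.3 CPM on plate 1 and to 57.0, 53.5 and 70.1 CPM on plate 2. The 5 kainate receptor pore subunits summed to 27.5, 31.2 and 33.5 CPM on plate 1 and to 46.5, 39.5 and 49.8 CPM on plate 2. The Neto sum was higher in every library, with a ratio of 1.45 ± 0.217 (SD, n = 6), from 1.23 to 1.86, and a difference of 0.51 ± 0.20 on the scale of log2(CPM + 1) (6 of 6 libraries, exact permutation test, p = 0.03125, adjusted p = 0.0382). It was 0.62 on plate 1 and 0.40 on plate 2. The kainate pore sum was shared by Grik3 at 12.7 ± 4.98 CPM, Grik1 at 8.86 ± 2.35 CPM, Grik4 at 8.75 ± 1.35 CPM and Grik5, with Grik2 at 0.749 ± 0.127 CPM. Neto2 alone exceeded the summed kainate pore subunits in all 6 libraries. These are levels of transcripts, and how many receptors carry an auxiliary subunit was not measured.

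**Figure D2:**
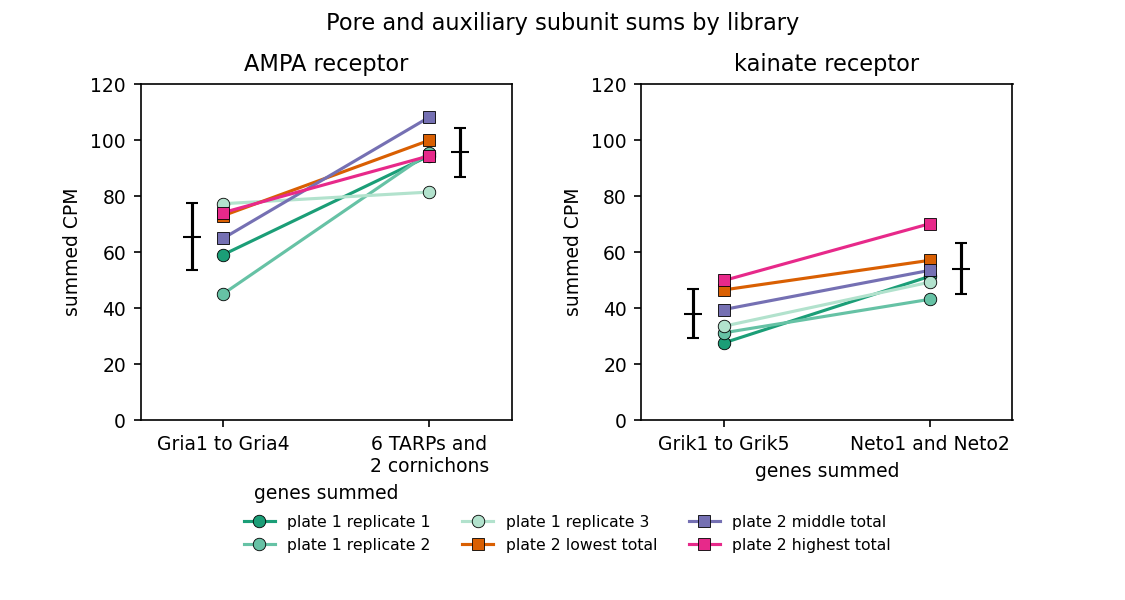
Summed level (CPM, axis from 0) of the pore subunit genes and of the auxiliary genes, for AMPA receptors and for kainate receptors. Each line joins the sums of 1 library, and the black marks are the mean with 1 SD. In each library the auxiliary sum, Cnih2 included, is the higher, by 1.05 to 2.12 times for AMPA receptors and 1.23 to 1.86 times for kainate receptors.

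AMPA receptors also bind proteins outside these families and pass through helper proteins of the endoplasmic reticulum. Of 25 such genes, 16 had more than 3 counts in every library and Vwc2 was at 0 in all 6. The highest were Nptx2, a secreted pentraxin that gathers AMPA receptors, at 115 ± 63.5 CPM, Olfm1, a secreted olfactomedin, at 83.2 ± 18.8 CPM, Nptxr, the membrane-bound pentraxin, at 78.6 ± 25.2 CPM, and Abhd6, a hydrolase that limits surface delivery of AMPA receptors, at 61.1 ± 11.8 CPM (SD, n = 6 each). Nptx2 had 2101, 1595 and 1929 counts on plate 1 and 4962, 1672 and 7716 on plate 2, so that the plate 2 library with the middle total was far below the other 2 of its plate. Frrs1l and Cpt1c, assembly factors of the endoplasmic reticulum named after their values were seen, had 2.53 ± 0.539 CPM and 15.6 ± 4.74 CPM. The Dlg scaffold proteins bind the residues encoded by the coding ends of the type I TARPs shown above. All 4 Dlg genes lay above 3 counts in every library. Dlg4 had 103 ± 7.87 CPM, Dlg1 49.4 ± 5.93 CPM, Dlg3 19.2 ± 4.23 CPM and Dlg2 11.4 ± 1.10 CPM.

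The plates were the only groups that the labels give, and the comparison of plate 2 with plate 1 shows how far the levels moved between the cultures. No member was called. With edgeR's quasi-likelihood test, TMM scaling and Benjamini-Hochberg adjustment, 8 of the 10 members were tested and 0 had an adjusted p under 0.05, against 29 of 15669 genes, or 0.185%, over the whole table. At an unadjusted p under 0.05 there was 1 member with each of edgeR, DESeq2 and limma-voom, where 16.1%, 14.7% and 16.3% of all genes tested had such a p, and 0 members were called by any of them. Cacng7 had the lowest p, with a log2 fold change of -0.61 (SE 0.24, edgeR, adjusted p = 0.260). Neto1 had -0.74 (SE 0.37, edgeR, adjusted p = 0.367), which ran from -1.06 without the highest total of plate 2 to -0.46 without replicate 2 of plate 1 and was -0.47 without the middle total of plate 2. Cacng4 had -0.25 (SE 0.14, edgeR, adjusted p = 0.411). The others lay between -0.03 for Cacng8 and 0.20 for Cacng5. Of the 8 pore subunits tested, 0 were called by edgeR, DESeq2 or limma-voom and 0 had an unadjusted p under 0.05. Of the 18 other partner genes tested, edgeR called 0 and gave 4 an unadjusted p under 0.05, while DESeq2 called 1, Shisa7, which edgeR placed at 0.74 (SE 0.18, adjusted p = 0.122). Over all genes DESeq2 called 3.73%, so that 1 of 18 is near its background. Of the 4 Dlg genes, 0 were called by any of the 3 tools and 1, Dlg1, had an unadjusted p under 0.05 with edgeR.

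**Figure D3:**
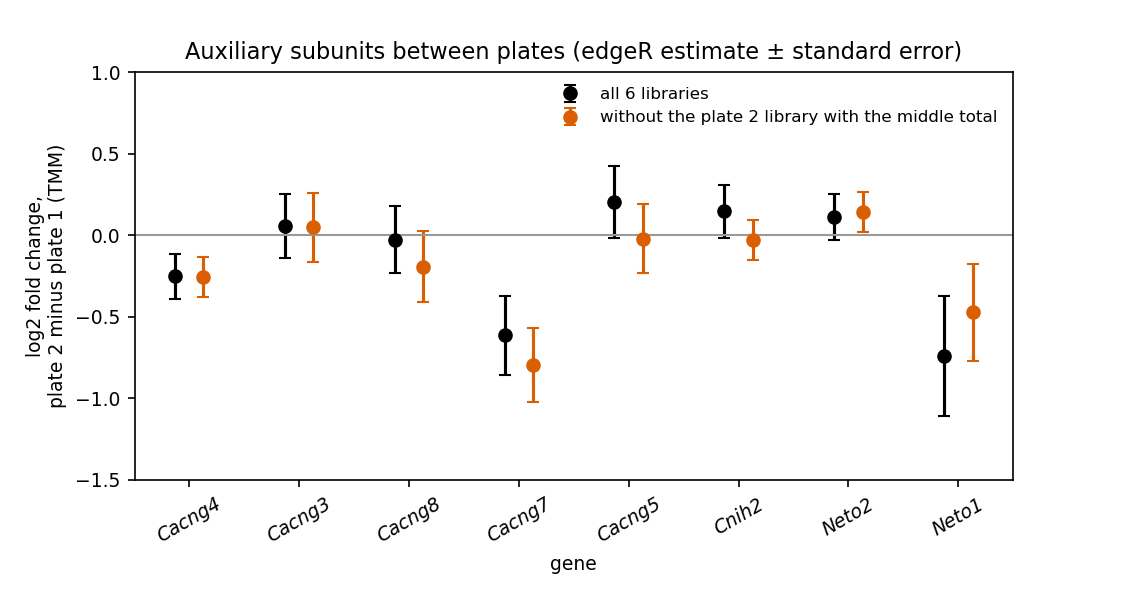
Log2 fold change of plate 2 against plate 1 for the 8 auxiliary subunit genes tested by edgeR, with bars of 1 standard error. Black marks use all 6 libraries and orange marks leave out the middle-total library of plate 2. Cacng7 moves from -0.61 to -0.80 without that library and Cnih2 from 0.15 to -0.03.

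When the middle-total library of plate 2 was left out, Cacng7 was lower on plate 2, with a log2 fold change of -0.80 (SE 0.22, edgeR, adjusted p = 0.0348), and was the single member called. In that fit 7.83% of the 15894 genes tested were called lower on plate 2, so that 1 of 8 members is near the background. Cnih2 then had -0.03 and Cacng5 -0.02, in place of 0.15 and 0.20 with all 6 libraries, and neither was called in either fit. Of the 8 pore subunits, 1 was called in that fit, Grik3, which was higher on plate 2 with 0.66 (SE 0.15, edgeR, adjusted p = 0.0106), where 4.20% of all genes were called higher.

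The ranking of the plates by CPM depends on the scaling. In CPM of the total, Cacng3, Cacng5, Cnih2 and Neto2 were higher in all 3 libraries of plate 2 than in all 3 of plate 1, which is 4 of the 8 members tested, and 35.2% of all genes tested were. No member was lower without overlap, as were 4.00% of all genes. With CPM scaled by TMM, 0 of the 8 members separated the plates in either direction, while 24.8% of all genes tested did. The median log2 fold change over all genes was 0.30 with scaling to the total and 0.03 with TMM. With scaling to the total, edgeR gave 0.32 for Cacng3, 0.47 for Cacng5, 0.41 for Cnih2 and 0.38 for Neto2, and called none of them.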

How the data were processed

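The RNA of 6 GLUTag wells was measured. The authors trimmed the reads with Trim Galore 0.6.4, quantified GRCm38 transcripts with Salmon 1.5.1, leaving length uncorrected, and added these up by gene. What they deposited are expected counts, not normalized and not always whole. Here they were divided by the library total (CPM), and rounded to whole numbers for edgeR 4.0.16 and DESeq2 1.42.0. Positions and symbols are from GENCODE M21, in which 54107 of 54281 identifiers were found, whereas the authors used a later release on the same build. The totals averaged 27.3 ± 5.76 M counts (SD, n = 6). No 2 libraries agreed within sampling noise (lowest chi-square per gene 10.9).

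Genes were compared by the within-library difference of log2(CPM + 1), using an exact permutation test by sign flips, two-sided, with Benjamini-Hochberg adjustment over 11 comparisons (9 pairs and 2 sums). Plates were compared with edgeR (robust quasi-likelihood fit, TMM, filterByExpr, threshold 0.05 on the adjusted p), which was tested on simulated data. DESeq2, limma-voom 3.58.1, scaling to the total, other filters, pseudocounts of 0.1 and 5 CPM, and leaving out each library were the alternatives. Python 3.11.15, numpy 2.4.6, scipy 1.17.1 and R 4.3.3 were used.

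The members and lists were chosen with earlier results of these data known. Named were all members and pore subunits and, from each other list, up to 4 genes of highest mean level, genes at 0 in all libraries and genes past the threshold between plates. Secretion, siRNA and blot experiments were not analysed here.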

Additional observations from a re-analysis of the deposited data

How the results depend on the processing

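Of 111 values compared within libraries under an alternative, 110 kept their direction, and their side of the threshold where the test allowed one. The other, chosen after seeing the data, leaves the cornichons out of the auxiliary sum and put it 0.0483 above the Gria sum in log2 (exact permutation test, adjusted p = 0.719). Differences from Cacng2 and Cnih3 take their size from the pseudocount. With 5 libraries the smallest exact p is 0.0625, so leaving one out could not give a call. The number of genes called between plates was 29 with edgeR, 584 with DESeq2 (157 higher, 427 lower), 1461 with scaling to the total (1390 higher, 71 lower, against 2 and 27 with TMM) and 545 without a filter (255 and 290). It was 30 with limma-voom and 29 with at least 10 counts in every library. Leaving out each library gave 0 to 1911 genes, with 0 without plate 1 replicate 1 (1611 at an unadjusted p under 0.05 with edgeR) and without the lowest total of plate 2 (2121), and 1911 without the middle total. Among the members' plate differences in log2, 80 of 88 kept direction and side, and 7 reversed, none of them called: Cacng4 was 0.0188 and Cacng8 0.239 with scaling to the total. Leaving out each library gave -0.0469 to 0.179 for Cacng3, -0.192 to 0.0891 for Cacng8, -0.0203 to 0.330 for Cacng5, -0.0317 to 0.237 for Cnih2 and -0.00487 to 0.175 for Neto2, with the cause not tested. Cacng7 ran from -0.80 to -0.35 (edgeR, DESeq2 or limma, adjusted p = 0.0348 to 0.649), called only without the middle total of plate 2. No paired analysis was possible because no replicate number in the labels occurs on both plates. The column names count from 1 to 3 anew on each plate, which ties no well of one plate to a well of the other, and no fit with these numbers was made. Depth limits Cacng2 and Cnih3, whose counts lie at or under the limit that 0 counts allow.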

Other observations

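The CPM of the 8 detected members and of the 8 detected pore subunits, and 7 of the differences within libraries, were examined for a library far from the other 5 by Dixon's test at its 95% critical value. Of 23 such values, 0 passed, where chance alone gives about 1 in 20.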
